A study of Homo sapiens with 12 samples.

Results

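The Eph receptors and their ephrin ligands were examined in MDA-MB-231 human breast cancer cells of a bone-tropic subline, with and without an shRNA against HMGA2, and in cells carrying an inducible Tet1 or HOXA9 construct. The set comprised 9 genes, chosen by name with earlier results of these data known. They were the A-class receptors EPHA2, EPHA3, EPHA4 and EPHA7, the B-class receptors EPHB2 and EPHB4, and the ligands EFNA1, EFNB1 and EFNB2. Of these, 8 had a probe set annotated to that gene alone, each with 1 such probe set, among 18417 genes on the array with a probe set of their own. EPHB2 was not analysed here.

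The study measured total RNA on Affymetrix Human Gene 1.0 ST arrays in 4 groups. Control was the 1833 subline of MDA-MB-231, with no construct named in the labels. The shHMGA2 group was the same subline transduced with an HMGA2 shRNA in the lentiviral vector pLKO.1 and kept under puromycin. The Tet1 and HOXA9 groups carried Flag-Tet1 or HOXA9 behind a tetracycline-responsive promoter together with the Tet-On 3G regulator, were selected in puromycin and G418, and grew in serum approved for tetracycline systems. Serum, G418, the regulator and, as far as the labels name it, puromycin therefore differed from control along with the construct. The source names of these lines give a subline number, 1834, other than that of their titles. The labels do not say whether a line was 1 clone or a pool, or how many shRNAs were used. Counted as independent were 10 arrays, 3 each of control and shHMGA2 and 2 each of Tet1 and HOXA9, because column 3 of Tet1 and of HOXA9 equalled the mean of the other columns of its group. The labels call the arrays biological replicates without naming separate cultures, so p-values measure only the spread between these arrays.

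Eph receptors form a large family of receptor tyrosine kinases, and ephrins are their ligands on the surface of neighbouring cells. A-class ephrins are held in the membrane by a lipid anchor and mostly bind A-class receptors, whereas B-class ephrins span the membrane and mostly bind B-class receptors, with EPHA4 able to bind both classes. Signals run both ways, forward into the cell with the receptor and in reverse into the cell with the ephrin, and act on adhesion, repulsion and migration. In breast cancer cells EPHA2 is known as an abundant receptor that can promote motility when no ligand is bound, and EPHB4 has been described as a target of HOXA9 in endothelial cells.

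The promoters of the 5 genes on which the results turn are shown first, because HMGA2 is a chromatin protein, TET1 an oxidase of 5-methylcytosine in DNA and HOXA9 a homeobox factor. Each sequence is the 250 bases before the outermost start of the gene in RefSeq, 5′ to 3′ on the gene's strand, in build GRCh38.p14. Capitals mark CG dinucleotides, the sites of DNA methylation. The EPHA7 promoter lies at chr6:93419560-93419809 on the minus strand, the EPHA3 promoter at chr3:89107371-89107620 on the plus strand, the EPHA2 promoter at chr1:16156070-16156319 on the minus strand, the EPHA4 promoter at chr2:221574203-221574452 on the minus strand and the EFNB2 promoter at chr13:106535663-106535912 on the minus strand.
EPHA7: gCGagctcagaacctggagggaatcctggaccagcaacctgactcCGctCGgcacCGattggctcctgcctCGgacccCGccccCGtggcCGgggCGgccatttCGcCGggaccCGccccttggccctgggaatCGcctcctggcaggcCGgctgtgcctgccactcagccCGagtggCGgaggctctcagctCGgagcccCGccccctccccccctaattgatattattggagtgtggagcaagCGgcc
EPHA3: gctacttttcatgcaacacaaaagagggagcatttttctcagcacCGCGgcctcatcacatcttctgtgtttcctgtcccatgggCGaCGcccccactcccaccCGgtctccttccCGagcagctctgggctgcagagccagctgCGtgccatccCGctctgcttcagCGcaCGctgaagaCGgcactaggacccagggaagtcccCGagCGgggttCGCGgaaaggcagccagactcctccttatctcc
EPHA2: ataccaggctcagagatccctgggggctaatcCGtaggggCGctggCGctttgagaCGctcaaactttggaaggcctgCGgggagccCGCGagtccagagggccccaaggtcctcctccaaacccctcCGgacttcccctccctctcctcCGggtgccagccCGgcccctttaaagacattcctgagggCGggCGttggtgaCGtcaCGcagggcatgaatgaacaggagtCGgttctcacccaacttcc
EPHA4: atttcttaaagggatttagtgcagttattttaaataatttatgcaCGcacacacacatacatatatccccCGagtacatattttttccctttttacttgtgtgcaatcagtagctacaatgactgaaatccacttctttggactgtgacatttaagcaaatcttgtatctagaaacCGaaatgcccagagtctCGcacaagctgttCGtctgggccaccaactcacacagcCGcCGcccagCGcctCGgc
EFNB2: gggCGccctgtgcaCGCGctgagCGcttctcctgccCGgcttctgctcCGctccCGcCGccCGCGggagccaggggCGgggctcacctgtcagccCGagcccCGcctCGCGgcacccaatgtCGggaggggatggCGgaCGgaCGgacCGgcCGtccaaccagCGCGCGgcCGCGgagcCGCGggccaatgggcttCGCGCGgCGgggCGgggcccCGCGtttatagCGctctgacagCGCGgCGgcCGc

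EFNB2 held 40 CG dinucleotides in these 250 bases, EPHA7 19, EPHA3 15, EPHA2 15 and EPHA4 9, against a median of 10 over the 27305 RefSeq promoters of the same length. RefSeq lists a second start for EPHA4, whose window held 30, and 3 starts in all for EPHA7, whose other windows held 14 and 20. The receptors that were higher in shHMGA2 arrays (EPHA7, EPHA3) and the one that was lower by the largest step (EPHA2) thus had similar counts. The letters TTTAT, a core found in sites of posterior homeobox proteins, were searched on both strands. They occurred once in EPHA4, 213 bases before the start, and once in EFNB2, 30 bases before it. They were not found in the outermost windows of the other 6 measured genes, and 33.8% of all promoters held them at least once. These counts describe letters only, and neither methylation nor binding was measured.

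The arrays fell into 2 sets. Array correlations were 0.986 to 0.998 within control and shHMGA2, 0.993 to 0.997 within Tet1 and HOXA9, and 0.945 to 0.966 between the sets, and the lower quartile of all probe sets was 5.75 to 5.76 in the first set and 6.22 to 6.25 in the second. Dim genes therefore stood higher in the Tet1 and HOXA9 arrays as deposited. The median gene was 0.25 above control (log2) in Tet1 and 0.24 in HOXA9, 0 and -0.02 after one quantile normalization over the 10 arrays, and -0.22 and -0.21 with equal array medians. Values across the sets are on the deposited scale unless another of these 3 scalings is named, and array set, serum, selection and construct cannot be told apart in them. No detection calls were used, and a mean under the 30th percentile of probe sets (6.26) may be background. The mesenchymal markers VIM, CD44, CAV1, MSN and AXL were at 11.9 or more in every group and TGFBI at 8.29 or more. CDH1 and PGR were below 6.26 in every group and ESR1 in control and shHMGA2 (6.05 and 5.95) but not in Tet1 and HOXA9 (6.95 and 6.96), while ERBB2 (8.6 to 8.92) and EPCAM (7.61 to 8.25), fixed as markers that should be low in this line, were not dim. TET1 itself was at 6.56 ± 0.11 in control (log2, SD, n = 3), 8.97 ± 0.29 in shHMGA2 (n = 3), 7.07 ± 0.13 in Tet1 (n = 2) and 7.3 ± 0.14 in HOXA9 (n = 2), so this probe set, which may not read the introduced copy, does not bear out the Tet1 label. HMGA2 and HOXA9 were not analysed here, and groups are named by their labels.

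EPHA7, a receptor known from axon guidance and from tissue boundaries in the embryo, showed the widest range of the 8 genes. Its level (log2) was 5.77, 5.69 and 5.79 in the control arrays and 8.72, 8.99 and 9.02 in the shHMGA2 arrays. It was 7.51 and 7.53 in Tet1 and 7.74 and 7.71 in HOXA9. The groups did not overlap: control was lowest, Tet1 and HOXA9 lay between, and all 3 shHMGA2 arrays were highest. The shHMGA2 arrays were 2.93 above the highest control array at the least. Groups without overlap with control were common as deposited, at 40.5% of all genes in shHMGA2, 85.7% in Tet1 and 82.8% in HOXA9, so the gaps here and for the genes that follow are descriptions. EPHA7 rose 8.92-fold in shHMGA2 over control (log2 3.16, SE 0.08, 95% confidence interval 2.99 to 3.33, limma adjusted p = 2.1e-10, higher in 3 of 3 arrays). The control mean of 5.75 is under the 30th percentile, so the fold is that of the measured values and can understate the change in RNA.

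**Figure D1:**
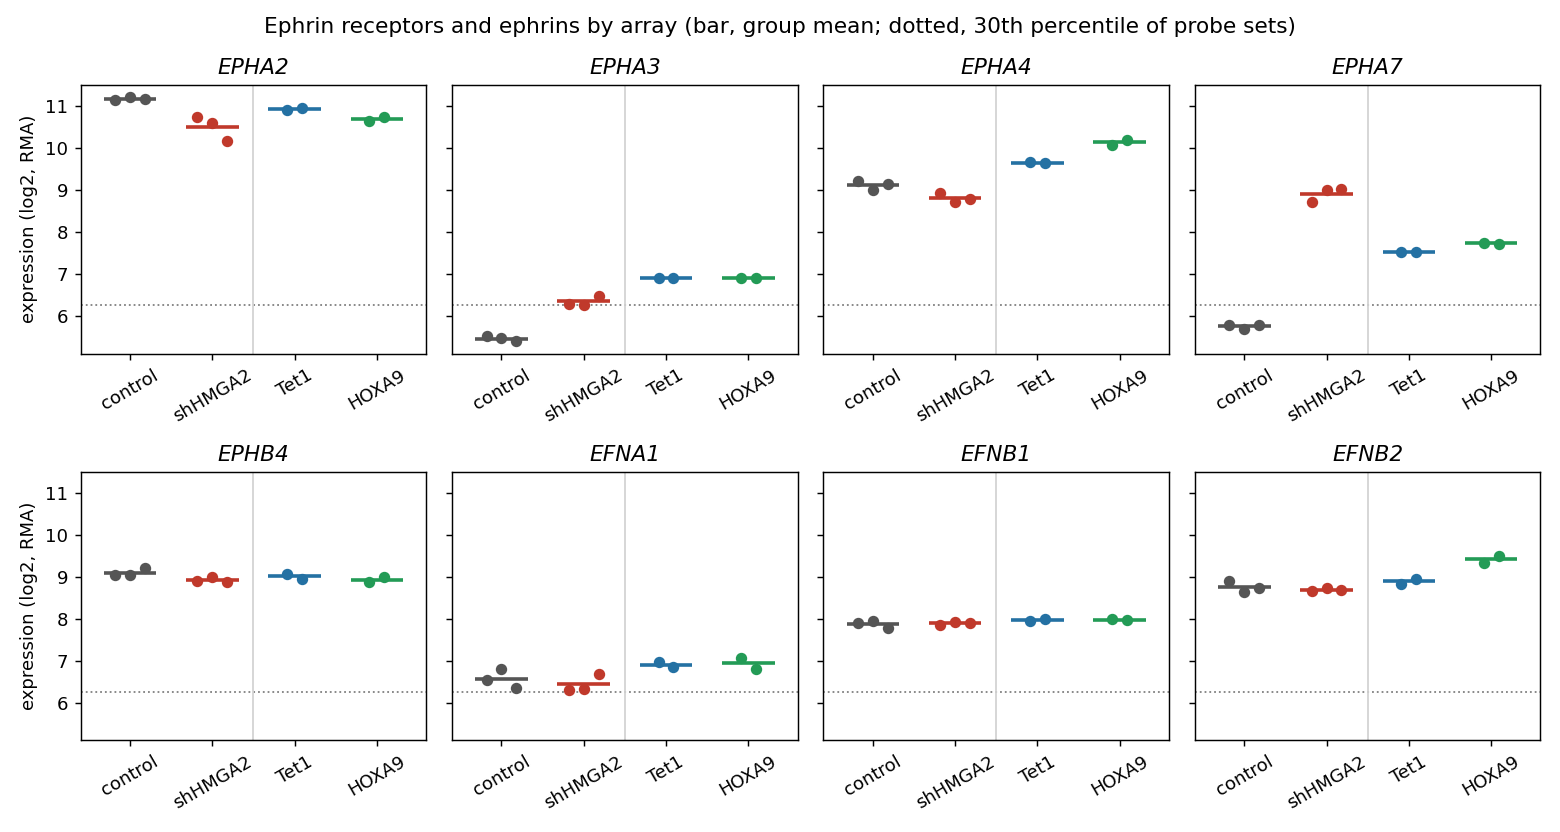
Expression (log2, RMA, vertical axis) of 8 Eph receptors and ephrins in each of 10 arrays, by group on the horizontal axis; points are arrays, bars are group means, the dotted line is the 30th percentile of all probe sets (6.26) and the vertical line parts the 2 array sets. EPHA7 stands between 8.72 and 9.02 in shHMGA2 against 5.69 to 5.79 in control, and EPHA4 is highest in HOXA9.

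The Tet1 and HOXA9 arrays also had more EPHA7 signal than control. The difference was 1.77 in Tet1 (log2, SE 0.09, limma adjusted p = 1.7e-08) and 1.97 in HOXA9 (SE 0.09, adjusted p = 8.9e-09). Both comparisons use the same control arrays. After quantile normalization the differences were 1.27 and 1.53 and with equal medians 1.3 and 1.52, all with an adjusted p under 0.05. EPHA7 was lower in Tet1 than in shHMGA2 by 2.61-fold (log2 -1.39, SE 0.09, limma adjusted p = 5.8e-08) and in HOXA9 by 2.27-fold (log2 -1.18, SE 0.09, adjusted p = 2e-07). The shHMGA2 mean was the highest under the other scalings too, at 8.93 against 7.22 and 7.47 after quantile normalization and at 9.07 against 7.25 and 7.46 with equal medians. Between the neighbours Tet1 and HOXA9, the difference of -0.2 did not pass (limma adjusted p = 0.55, 95% confidence interval -0.41 to 0).

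EPHA3, a receptor of A-class ephrins found in mesenchymal and embryonic tissues, was likewise lowest in control. Its level (log2) was 5.51, 5.47 and 5.39 there, 6.29, 6.25 and 6.48 in shHMGA2, 6.89 in both Tet1 arrays, and 6.89 and 6.91 in HOXA9. All arrays of the other groups were above all control arrays, but the control mean of 5.46 is below the 30th percentile and the shHMGA2 mean of 6.34 only just above it. EPHA3 rose 1.84-fold in shHMGA2 (log2 0.88, SE 0.07, 95% confidence interval 0.73 to 1.02, limma adjusted p = 3.1e-06). It was higher than control by 1.43 in Tet1 (log2, SE 0.07, limma adjusted p = 2.9e-08) and by 1.44 in HOXA9 (SE 0.07, adjusted p = 3.1e-08). These became 0.94 and 0.96 after quantile normalization and 0.96 and 0.98 with equal medians, with an adjusted p under 0.05 throughout. The order of shHMGA2 below Tet1 and HOXA9 was not stable. Quantile-normalized means were 6.56 in shHMGA2, 6.54 in Tet1 and 6.56 in HOXA9. Tet1 and HOXA9 differed by -0.01 (95% confidence interval -0.19 to 0.17).

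The changes in shHMGA2, of EPHA7, EPHA3 and every other gene described here, were measured in arrays in which markers of some other cells also stood higher. Endothelial (0 of 8) and leukocyte (0 of 5) markers did not, and 1 of each was lower. Of 9 genes tied to embryonic kidney lines, 5 were higher and 0 lower in shHMGA2 than in control. Of all genes, 13.6% were called higher and 12.6% lower in this comparison. HOXD10 moved most, from 5.95 to 10.42 (log2, 22.2-fold), and NEFM (3.15-fold), NEFL (2.25-fold), CITED1 (1.45-fold) and WT1 (1.19-fold) were the others. The list's summed linear level was 2640 to 3430 in shHMGA2, 996 to 1080 in control, 1320 to 1360 in Tet1 and 1230 to 1350 in HOXA9. Its members CDH6 and TFAP2B were below the 30th percentile in shHMGA2, while PAX2 and LHX1 were at 6.84 and 6.56 there against 6.93 and 6.46 in control. CDKN2A and MTAP, from a stretch that MDA-MB-231 is known to lack, summed to 1030 to 1480 in shHMGA2 and 207 to 273 in control. The CDKN2A probe set was not dim in any group, at 7.4 in control, 9.88 in shHMGA2, 7.09 in Tet1 and 6.97 in HOXA9 (log2). Of 7 measured neural markers 3 were higher and 0 lower in shHMGA2, with sums of 759 to 876 against 630 to 665 and with DCX and ELAVL4 below the 30th percentile in every group. In Tet1 and HOXA9, CDKN2A and MTAP summed to 193 to 211, while 6 and 5 of the kidney list were higher than control and 1 and 2 lower as deposited, with LHX1 at 7.72 and 7.66 and PAX2 at 7.63 and 7.61. Neural markers there were higher in 7 and 5 of 7 and lower in 0. Of all genes, 53.9% in Tet1 and 54% in HOXA9 were called higher than control as deposited, and 23.2% and 21.6% lower. The part of these markers in the results was not tested.

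EPHA4, the receptor that binds both ephrin classes, was lower in shHMGA2 and highest in HOXA9. Its level (log2) was 9.22, 9 and 9.15 in control and 8.93, 8.71 and 8.79 in shHMGA2. It was 9.67 and 9.63 in Tet1 and 10.08 and 10.18 in HOXA9. The 4 groups did not overlap, although the lowest control array was only 0.07 above the highest shHMGA2 array. EPHA4 fell 1.24-fold in shHMGA2 (log2 -0.31, SE 0.07, 95% confidence interval -0.48 to -0.15, limma adjusted p = 0.0081). In HOXA9, EPHA4 was 2-fold higher than control (log2 1, SE 0.08, limma adjusted p = 7.1e-07), and this was 1.02 after quantile normalization and 0.55 with equal medians, past the threshold in each. In Tet1 it was 0.53 higher (SE 0.08, limma adjusted p = 9.8e-05), 0.55 after quantile normalization and 0.06 with equal medians (adjusted p = 0.55), where the call was lost.

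EPHA2, the receptor with a known part in breast cancer cell motility, fell in shHMGA2. Its level (log2) was 11.14, 11.21 and 11.17 in control, 10.73, 10.6 and 10.16 in shHMGA2, 10.91 and 10.95 in Tet1, and 10.63 and 10.73 in HOXA9. All arrays of the changed groups lay below all control arrays, and shHMGA2 replicate 3 was lowest. The fall in shHMGA2 was 1.6-fold (log2 -0.67, SE 0.11, 95% confidence interval -0.92 to -0.43, limma adjusted p = 0.0011), and -0.51 without shHMGA2 replicate 3, still past the threshold. That array also had the highest sum of the kidney list, 3430 against 2640 and 2830, whose part in the fall was not tested. In HOXA9, EPHA2 was 1.4-fold below control (log2 -0.49, SE 0.13, limma adjusted p = 0.0039), with -0.42 after quantile normalization and -0.95 with equal medians. In Tet1 the difference was -0.24 (95% confidence interval -0.52 to 0.04, limma adjusted p = 0.1), -0.14 after quantile normalization and -0.71 with equal medians, where it passed (adjusted p = 0.00045). It also passed as deposited without shHMGA2 replicate 3 (-0.24, adjusted p = 0.0054), an array outside this comparison that enters the pooled spread.

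EPHB4, the receptor that pairs with EFNB2 in blood vessel formation, varied least among the measured receptors. It was at 9.1 ± 0.09 in control (log2, SD, n = 3), 8.91 ± 0.06 in shHMGA2 (n = 3), 9.01 ± 0.09 in Tet1 (n = 2) and 8.92 ± 0.08 in HOXA9 (n = 2). The shHMGA2 arrays lay below the control arrays by 0.06 at the closest, yet the difference of -0.19 did not pass (limma adjusted p = 0.058, 95% confidence interval -0.34 to -0.04). It passed after quantile normalization and with equal medians (adjusted p = 0.033 and 0.043). The Tet1 difference from control was -0.09 (95% confidence interval -0.25 to 0.07, limma adjusted p = 0.29) as deposited. After quantile normalization it was -0.14 (adjusted p = 0.081), and it passed with equal medians at -0.56 (adjusted p = 5.4e-05). The HOXA9 difference from control was -0.17 (95% confidence interval -0.34 to -0.01, limma adjusted p = 0.052) as deposited. It was -0.27 and past the threshold after quantile normalization (adjusted p = 0.0045) and -0.63 with equal medians (adjusted p = 2.1e-05), and it also passed without control replicate 1 (-0.2) or HOXA9 replicate 2 (-0.23).

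EFNB2, a transmembrane ligand of EPHB4 and EPHA4, was highest in HOXA9. Its level (log2) was 8.9, 8.64 and 8.72 in control, 8.65, 8.74 and 8.67 in shHMGA2, 8.83 and 8.94 in Tet1, and 9.33 and 9.5 in HOXA9. The HOXA9 arrays stood above all others, whereas control, shHMGA2 and Tet1 lay close together and control overlapped with both. EFNB2 was 1.58-fold higher in HOXA9 than in control (log2 0.66, SE 0.09, limma adjusted p = 2.2e-05), 0.6 after quantile normalization and 0.21 with equal medians, where the call was lost (adjusted p = 0.057). The shHMGA2 difference from control was -0.07 (95% confidence interval -0.23 to 0.1, limma adjusted p = 0.58). The Tet1 difference was 0.13 (95% confidence interval -0.06 to 0.32, adjusted p = 0.18), but -0.34 with equal medians (adjusted p = 0.005) and 0.21 without control replicate 1 (adjusted p = 0.036).

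The direct comparison of Tet1 with HOXA9, within 1 array set, asks where these 2 lines differ. EFNB2 was lower in Tet1 by 1.45-fold (log2 -0.53, SE 0.09, 95% confidence interval -0.74 to -0.33, limma adjusted p = 0.033). It was the only one of the 8 measured genes to pass, 12.5% of them, against 0.434% of all genes called (0.114% higher and 0.32% lower in Tet1). As the genes were chosen with earlier results of these data known, this share is a description. With a replicate block in the limma fit this EFNB2 call was lost (adjusted p = 0.072), and 0 of the 8 passed. EPHA4 differed almost as much, at 1.39-fold lower in Tet1 (log2 -0.47, SE 0.09, 95% confidence interval -0.67 to -0.28), and narrowly missed the threshold (limma adjusted p = 0.053). For both genes the 2 Tet1 arrays lay below the 2 HOXA9 arrays, by 0.39 for EFNB2 and 0.4 for EPHA4, and 41.3% of all genes had groups that did not overlap here. The EFNB2 call was lost without shHMGA2 replicate 2, Tet1 replicate 1 or 2, or HOXA9 replicate 1 or 2 (difference -0.61 to -0.45 over all left-out arrays, highest adjusted p = 0.44). EPHA4 passed in the fit after quantile normalization (adjusted p = 0.019), in that of the compared groups only (0.025) and in that with an intensity trend (0.044), as well as without control replicate 2 (0.039) or shHMGA2 replicate 1 (0.037). The remaining genes were EPHA2 at 0.25 (95% confidence interval -0.05 to 0.55), EPHB4 at 0.08 (-0.1 to 0.26), EFNA1 at -0.03 (-0.37 to 0.31) and EFNB1 at 0 (-0.16 to 0.15), beside EPHA7 and EPHA3 above.

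**Figure D2:**
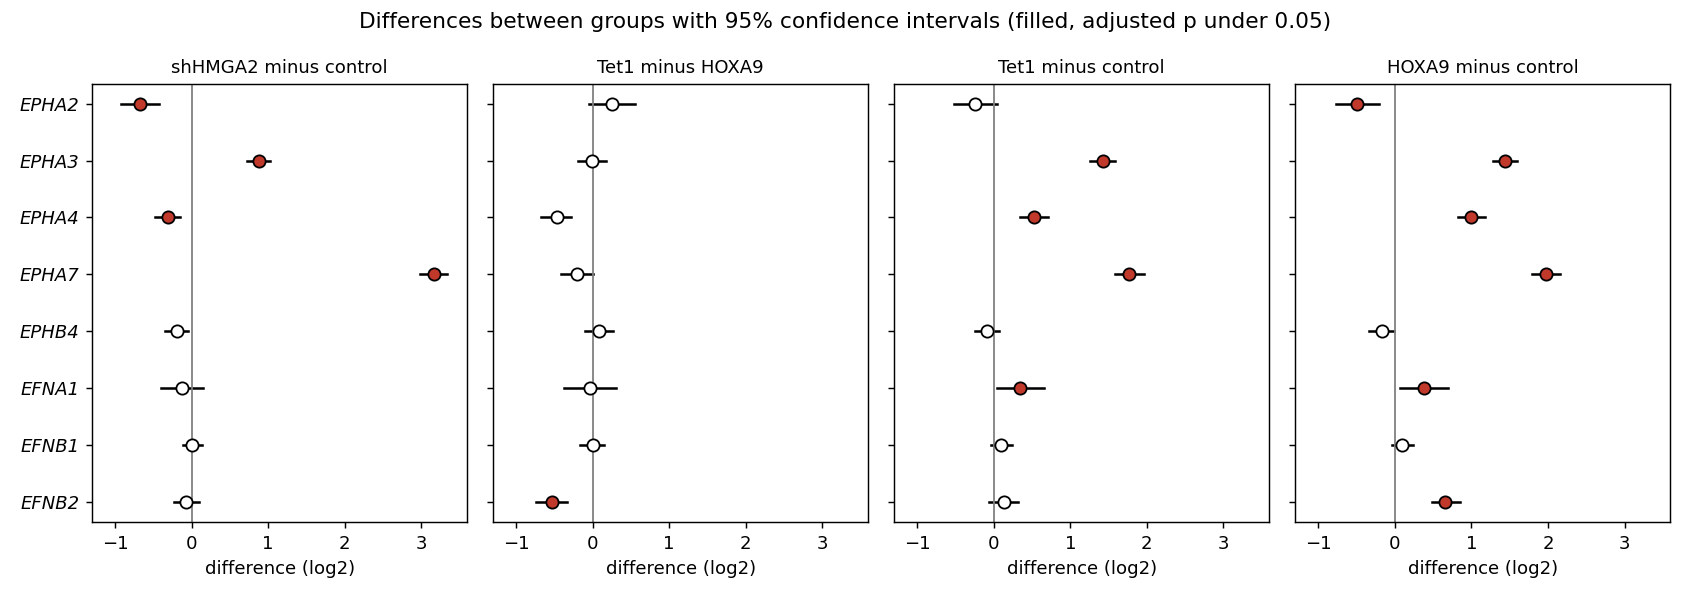
Differences between groups (log2, horizontal axis) for 8 genes in 4 comparisons; points are limma estimates, lines 95% confidence intervals, and filled points have an adjusted p under 0.05. In shHMGA2 minus control EPHA7 stands at 3.16 and EPHA3 at 0.88, EPHA2 and EPHA4 lie below 0, and in Tet1 minus HOXA9 EFNB2 alone is filled.

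EFNA1, a lipid-anchored ligand of EPHA2, was at 6.56 ± 0.22 in control (log2, SD, n = 3), 6.43 ± 0.22 in shHMGA2 (n = 3), 6.9 ± 0.09 in Tet1 (n = 2) and 6.94 ± 0.19 in HOXA9 (n = 2). Control and shHMGA2 overlapped, and their difference of -0.12 did not pass (limma adjusted p = 0.54, 95% confidence interval -0.4 to 0.15). The differences of 0.35 in Tet1 and 0.38 in HOXA9 from control passed as deposited (limma adjusted p = 0.04 and 0.028). They turned to -0.22 and -0.18 after quantile normalization and to -0.12 and -0.07 with equal medians, with no call, so no direction across the sets is given for EFNA1. The Tet1 call was also lost with a replicate block (0.36, limma adjusted p = 0.067). It was lost too without control replicate 1 (0.34) or 3 (0.24) or Tet1 replicate 1 (0.29) or 2 (0.41). The HOXA9 call was lost without control replicate 1 (0.37) or 3 (0.28) or HOXA9 replicate 1 (0.24).

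EFNB1, a transmembrane ligand of B-class receptors, stayed within 7.78 to 7.99 (log2) in all 10 arrays. Its difference from control was 0.01 in shHMGA2 (95% confidence interval -0.11 to 0.14, limma adjusted p = 0.89). It was 0.1 in Tet1 and 0.1 in HOXA9 (95% confidence interval -0.04 to 0.24 in each, adjusted p = 0.19 and 0.17). After quantile normalization these turned to -0.28 and -0.27 and with equal medians to -0.37 and -0.35, all past the threshold, so the near-zero differences across the sets hold for the deposited scale only.

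In shHMGA2 against control, the comparison made by the study to find genes under HMGA2, vector and puromycin went with the shRNA, as far as the labels name them. The genes were chosen with earlier results of these data known, so shares of them are descriptions. In this comparison 2 of the 8 measured genes rose and 2 fell, 50% of them, against 26.2% of all genes called (13.6% higher and 12.6% lower). All 4 were receptors of the A class, but EPHB4 was the only B-class receptor measured in the set. Outside the set, EPHA6 and the B-class EPHB1 rose, and the A-class EPHA1, EPHA5, EPHA8 and EPHA10 did not pass. The median difference was -0.1 over the 8 genes and -0.03 over all genes. Over the whole family 4 of 21 measured genes rose and 2 fell, with a median of -0.03. The calls of EPHA7, EPHA3, EPHA2 and EPHA4 were kept without each of the 10 arrays in turn. Against control, 4 genes were higher in Tet1 and 0 lower, where 77.1% of all genes were called (53.9% higher and 23.2% lower). In HOXA9 5 were higher and 1 lower, where 75.7% were called (54% and 21.6%). Shares of 50% and 75% of the 8 genes were thus at or below those of all genes. The calls made in the same direction under all 3 scalings were EPHA7 and EPHA3 in Tet1, and EPHA7, EPHA3, EPHA4 and, as a fall, EPHA2 in HOXA9.

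**Figure D3:**
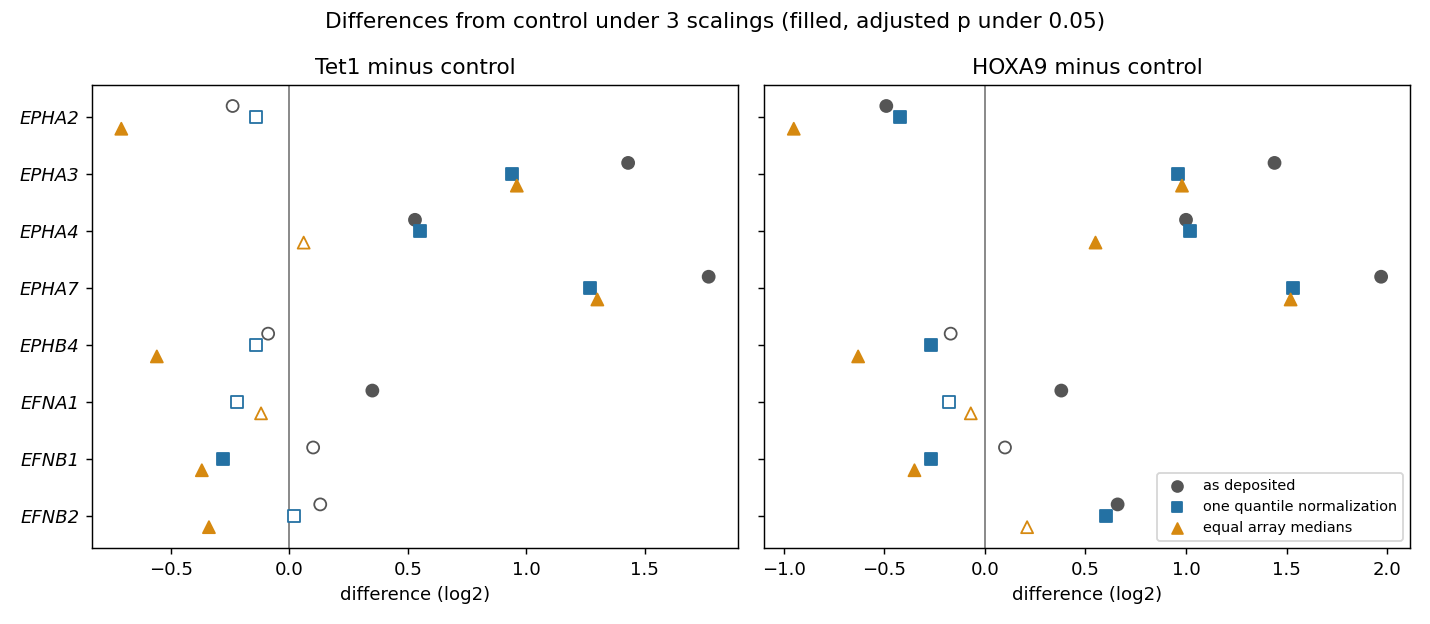
Differences from control (log2, horizontal axis) of 8 genes in Tet1 and in HOXA9 arrays under 3 scalings of the arrays; filled symbols have an adjusted p under 0.05. EPHA7 and EPHA3 lie above 0.9 in every case, EFNA1 and EFNB1 change side in both comparisons, and EFNB2 changes side in Tet1.

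The other 13 Eph receptors and ephrins of the family were all measured. In shHMGA2 2 rose and 0 fell, and 11 did not pass, so that 15.4% were called, below the 26.2% of all genes. EPHA6, a receptor mainly known from the nervous system, rose from 5.83 ± 0.09 to 6.4 ± 0.17 (log2, SD, n = 3 each, difference 0.56, SE 0.08, limma adjusted p = 0.00048). EPHB1, a receptor of B-class ephrins, rose from 5.99 ± 0.04 to 6.4 ± 0.07 (n = 3 each, difference 0.41, SE 0.06, adjusted p = 0.00037). Both control means are under the 30th percentile, as for EPHA7 and EPHA3, and both rises lie in the arrays in which 5 of 9 kidney, 3 of 7 neural and both CDKN2A and MTAP markers were higher. All 4 rises within the family were thus of receptors at a dim level in control. EPHA5 and EFNB3 were also dim in control (6.24 and 6.23) but did not pass (-0.03 and 0.14). Between Tet1 and HOXA9 limma called 0 of the 13, at adjusted p values of 0.59 or more, and 0 had an unadjusted p under 0.05.

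Across the array sets, 10 of the 13 were higher and 1 lower than control in both Tet1 and HOXA9 as deposited, 84.6% called against 77.1% and 75.7% of all genes. After quantile normalization the counts were 4 and 3 in Tet1 and 3 and 4 in HOXA9, and with equal medians 5 and 3, and 4 and 4. EFNA5, a lipid-anchored ligand, was the 1 lower gene, at 10.45 ± 0.06 in control (log2, SD, n = 3), 9.72 ± 0.03 in Tet1 (n = 2) and 9.68 ± 0.14 in HOXA9 (n = 2). The differences of -0.73 and -0.77 (SE 0.07 each, limma adjusted p = 2.5e-06 and 1.9e-06) were -0.63 and -0.72 after quantile normalization and -1.19 and -1.23 with equal medians. EPHB1 (0.84 and 0.78) and EPHA10 (0.96 and 0.95) were higher in Tet1 and HOXA9 under all 3 scalings, at 0.23 to 0.37 and 0.49 to 0.65 in the other scalings. EPHA1 and EFNA2 were higher under all 3 in Tet1, at 0.85 and 0.83 as deposited, 0.3 and 0.52 after quantile normalization and 0.39 and 0.36 with equal medians. EPHA1 and EFNB3 in HOXA9 (0.72 and 0.74) lost their call after quantile normalization (adjusted p = 0.08 and 0.13).

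Of 42 genes that act downstream of Eph receptors and ephrins or cut and bind them, 38 were measured. In shHMGA2 3 rose and 8 fell, 28.9% in all against 26.2% of all genes, with a median of -0.09 against -0.03. These 11 calls held under the 3 scalings. Among kinases and adaptors 1 of 20 rose and 4 fell: CRKL, an adaptor of SRC-family signals, rose (log2 0.34, SE 0.06, limma adjusted p = 0.00094), and BCAR3 (-0.68, SE 0.1, adjusted p = 6e-04) and BCAR1 (-0.44, SE 0.06, adjusted p = 0.00026), partners in focal adhesions, fell. SHC1, an adaptor of receptor tyrosine kinases, fell as well (-0.34, SE 0.08, adjusted p = 0.0067).

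Among 6 phosphatases 1 rose and 2 fell in shHMGA2. PTPN13, which can dephosphorylate the tail of B-class ephrins, rose 2.07-fold (log2 1.05, SE 0.09, limma adjusted p = 5.1e-06). Of 5 measured proteases 0 rose and 2 fell, with MMP14, a membrane protease able to cleave EPHA2, at -0.69 (SE 0.12, adjusted p = 0.0011). Of 7 partners of the B-ephrin tail 1 rose and 0 fell: PICK1, a PDZ protein, was 1.86-fold higher (log2 0.9, SE 0.13, adjusted p = 0.00037). Between Tet1 and HOXA9 limma called 0 of the 38 genes, with the lowest adjusted p at 0.15 (GRB10, log2 0.3), and 3 had an unadjusted p under 0.05.

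**Figure D4:**
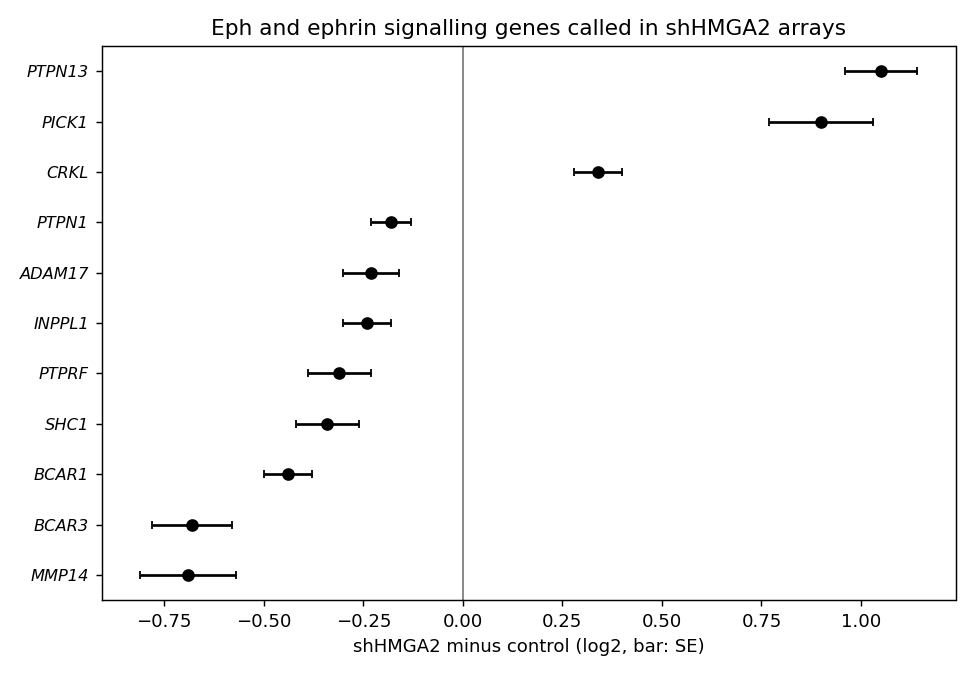
Differences (log2, horizontal axis) between shHMGA2 and control for the 11 called genes among 38 measured Eph and ephrin signalling genes; points are limma estimates and bars standard errors. PTPN13 (1.05) and PICK1 (0.9) stand furthest right, and MMP14 (-0.69) and BCAR3 (-0.68) furthest left.

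Against control 13 of the 38 signalling genes were higher and 16 lower in Tet1, and 13 and 17 in HOXA9. These are 76.3% and 78.9% of the list, near the 77.1% and 75.7% of all genes. Under all 3 scalings 4 were higher and 16 lower in both. GRB10, an adaptor of receptor tyrosine kinases, was higher in both (log2 1.4 and 1.1, with an SE of 0.07 in both and limma adjusted p = 1.6e-08 and 9.1e-08), as was MMP14 (0.97 and 0.83). With equal medians these were 0.93 and 0.64 for GRB10 and 0.5 and 0.38 for MMP14. NCK2, the adaptor of reverse ephrin-B signals, was lower in both (-1.46 and -1.41, and -1.92 and -1.86 with equal medians). The SRC-family kinase LYN was lower as well (-1.31 and -1.2, and -1.78 and -1.65 with equal medians). PARD6B, a cell polarity protein (-1.09 and -0.98), and the receptor phosphatase PTPRF (-0.92 and -1.04) were lower in both too, by 1.39 to 1.55 with equal medians. After quantile normalization GRB10, MMP14, NCK2, LYN, PARD6B and PTPRF stayed within 0.1 of these deposited differences. The adaptor GRB7 was higher in Tet1 by 0.7, but by only 0.17 after quantile normalization and 0.24 with equal medians. SH2D3C (0.71 in Tet1) was 0.35 and 0.25 in these scalings, and SRC (0.65 in HOXA9) 0.44 and 0.2. All 9 genes kept their calls under the 3 scalings in the comparisons given. PICK1 in HOXA9 (0.65) was 0.19 with equal medians (adjusted p = 0.24).

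The range of group means was at least 1 (log2) in 3 of the 8 genes, EPHA7 (3.16), EPHA3 (1.44) and EPHA4 (1.32), as in 15.2% of all genes on the deposited scale. After quantile normalization it was so in 2 of the 8 (11.2% of all genes), with EPHA3 at 0.96. With equal medians it was so in EPHA7 alone (17.5% of all genes), with EPHA3 at 0.98 and EPHA4 at 0.89. Genes with the most similar profile were found by the root mean square difference over 10 arrays after centring each gene on its own mean. Nearest to EPHA7 were HEY1, a Notch target repressor (0.31), GJC1, a connexin (0.38), and FKBP10, a collagen chaperone (0.39). Nearest to EPHA3 were the receptor LRP1B (0.08), the desmosomal cadherin DSC2 (0.11) and FAM229B (0.11). Nearest to EPHA4 were ACSS3, an acyl-CoA synthetase (0.06), MX2, an interferon-induced GTPase (0.09), and RBKS, a ribokinase (0.09). HEY1 ran from 6.92 in control to 10.17 in shHMGA2 with 8.19 in Tet1 and 8.31 in HOXA9, the same order as EPHA7. GJC1 and FKBP10 had this order too. All were picked for their likeness to EPHA7, so the shared order is no separate result. These distances describe 10 arrays in 2 sets, on the deposited scale.

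**Figure D5:**
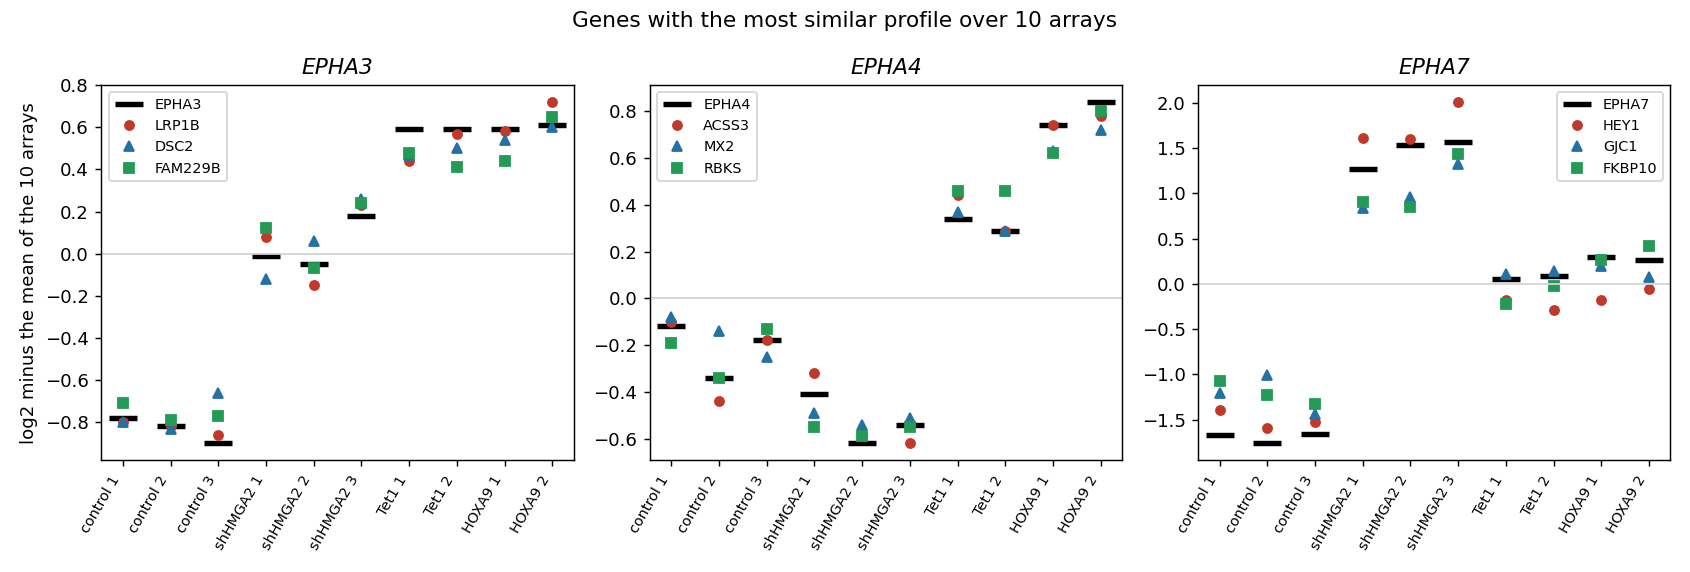
Expression of EPHA3, EPHA4 and EPHA7 (black bars) and of the 3 genes nearest to each (coloured symbols), as log2 minus the gene's mean over 10 arrays (vertical axis), in each array (horizontal axis). The nearest genes keep to EPHA4 within a root mean square of 0.06 to 0.09 and to EPHA7 within 0.31 to 0.39.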

How the data were processed

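RNA of 12 samples was measured on Affymetrix Human Gene 1.0 ST arrays. Per the submitters' processing notes, the authors summarised them with RMA in R 2.11, and the deposited table holds log2 values of 33297 probe sets. A joint normalization of all arrays is neither stated nor excluded there. Columns equal to the mean of their group's other columns within 1e-06 (2 columns) were left out. Probe sets with 1 gene symbol (19460) gave 18417 genes, the brightest probe set per gene. The 4 groups were fitted in one model with limma 3.58.1 in R 4.3.3 (lmFit, eBayes; 6 residual and 5.65 prior degrees of freedom; two-sided; no filter on dim genes). The threshold was an adjusted p of 0.05 (Benjamini-Hochberg, all genes of a comparison). Scripts were tested on simulated data. The fit pools the spread of all groups, and the number of arrays limits its precision.

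The members and lists were chosen with earlier results of these data known. The lists were the other 13 family genes, 42 signalling genes (1 further class is not reported here), and markers of MDA-MB-231, kidney, endothelial, neural and leukocyte cells. Named were the members, and from each list all called genes where 5 or fewer, otherwise the 4 largest rises and 4 largest falls without overlap between groups. Of endothelial markers 0 of 8 were higher and 1 lower in shHMGA2, and of leukocyte markers 0 of 5 and 1. The shares of all genes there were 13.6% higher and 12.6% lower. In Tet1 and HOXA9 7 and 6 of the endothelial and 5 and 5 of the leukocyte markers were higher than control as deposited. There 1 endothelial marker (KDR, log2 -0.39 and -0.56) was lower in each. The shares of all genes were 53.9% and 54% higher and 23.2% and 21.6% lower. Promoter sequences came from RefSeq (GRCh38.p14), with all 9 members matched. Alternatives were other scalings, a filter on dim genes, means over probe sets, all 12 columns, the compared groups only, an intensity trend, a replicate block and leaving out each array.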

Additional observations from a re-analysis of the deposited data

How the results depend on the processing

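In shHMGA2 against control, the 4 calls (EPHA7, EPHA3, EPHA2 and EPHA4) held under all 18 alternatives, and the count of genes called ranged from 3623 to 4871 over the left-out arrays. EFNB1 there, not called, turned to -0.02 both after one quantile normalization and with equal medians. Over the left-out arrays EFNB1 ran from -0.03 to 0.05 and EFNB2 from -0.13 to 0.01, neither called. In Tet1 against HOXA9, where 1 of the 8 measured genes was called, the count was 2 after quantile normalization, with all 12 columns, with the compared groups only and with an intensity trend, 0 with a replicate block, and 0 to 2 over the left-out arrays. Over the left-out arrays EFNA1 ran from -0.17 to 0.1 and EFNB1 from -0.02 to 0.01. The EFNB2 difference was -0.53 with the block (adjusted p = 0.072). Over all genes the count there was 80, against 145, 1112 and 143 in the first 3 of these alternatives, 69 with the block, and 11 to 112 over the left-out arrays. Fits that leave 1 array in a compared group take its spread from the other groups. Whether the replicate numbers pair the arrays is not settled by the values. Over all groups, deviations of same-numbered arrays correlated between -0.19 and 0.17, and 4 of 10 arrays correlated best with their own number. Between control and shHMGA2, same-numbered arrays correlated at 0.16, 0.14 and 0, and other-numbered arrays between -0.17 and 0.04. Between Tet1 and HOXA9 the values were 0.17 and -0.17, which mirror each other because each group has 2 arrays. The replicate block also ended the EFNA1 call in Tet1 (0.36, adjusted p = 0.067) and made one of EPHA2 (-0.33, adjusted p = 0.024).

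Against control, EFNA1 turned to -0.22 in Tet1 and -0.18 in HOXA9 after quantile normalization and to -0.12 and -0.07 with equal medians. EFNB1 turned to -0.28 and -0.27, and to -0.37 and -0.35. EFNB2 in Tet1 turned to -0.34 with equal medians. Over the left-out arrays 3 to 5 members were called in Tet1 (12663 to 14389 genes) and 5 to 7 in HOXA9 (12398 to 14105 genes). The EFNA1 calls held without 6 of 10 arrays in Tet1 (0.24 to 0.47) and 7 of 10 in HOXA9 (0.24 to 0.52). Of calls higher than control, the share was 69.9% in Tet1 as deposited, 49.4% after quantile normalization and 29.9% with equal medians, and 71.4%, 46.6% and 28.4% in HOXA9. The cause of these changes was not tested beyond the scaling itself. Signal near the 30th percentile limits EPHA3 and EPHA7 in control.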
